A study of Rattus norvegicus with 2 samples.

Results

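Orphan G protein-coupled receptors were measured in the hypothalamus of a pool of female rats and a pool of male rats. The genes were chosen by name, as every gene on the arrays called Gpr followed by a number, apart from the estrogen receptor Gpr30 and the kisspeptin receptor Gpr54, whose names were carried by 0 spots. This gave 70 of the 26328 gene names on the arrays, read by 83 probes on 101 spots. The name was the only criterion, so the 70 genes also held receptors that have since gained a ligand, such as the lactate receptor Gpr81, and 10 proteins that carry a Gpr name but lie outside the receptor classes.

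Both pools came from Wistar Kyoto rats aged 9 weeks, a normotensive strain that serves as the control of hypertensive rats. The female pool held RNA of 5 female rats and the male pool RNA of 5 male rats, with 100 ng taken from each animal. The labels name no transgene and no treatment, and all rats were killed by ether and decapitation before 1 operator dissected every hypothalamus. A quantity of 150 ng of each pool was labelled with the dye Cy3 and hybridised to 1 Agilent array, as part of a study of sex differences in brain centres of cardiovascular control. With 1 array per pool the comparison has no replicate check, no test and no p-value, and the spread between rats is not measured.

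G protein-coupled receptors cross the membrane with 7 helices and pass the binding of a ligand outside the cell to a G protein inside it. An orphan receptor is one whose natural ligand was unknown when it was named, or is still debated. The hypothalamus is rich in peptide and lipid signals, and several orphans are known from it, among them Gpr101, Gpr83, Gpr50 and the clock-associated Gpr176. Others in the list are known from glia, vessels, immune cells or the striatum, so a whole-tissue level is a sum over many cell types. In such tissue, fewer cells of a type and less RNA per cell cannot be told apart.

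The level of a gene is log2 of its processed intensity minus log2 of the 75th percentile of its array, so that 0 is the 75th percentile and each step of 1 is a 2-fold change in signal. A difference is the female level minus the male level. The error given with a difference is a technical SD, taken from probes spotted at least 8 times and of like level. It covers the scatter between spots and leaves out pooling, labelling and hybridisation. Probes differ in how well they bind, so the order of levels between genes describes these signals and is not an order of transcript numbers.

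The 75th percentile of intensity was 2943 in female and 3769 in male tissue, and 84.2% and 84.9% of the non-control spots were well above background in the female and male pools, with 0 spots saturated. All 14 hypothalamic markers on the arrays, among them Oxt, Avp, Hcrt and Pmch, were well above background in both pools. Spots of repeated probes departed from their own probe more often in 3 bands of slide rows, at rows 80 to 179, 400 to 459 and 520 to 532, where 4.86% of them did so against 0.449% elsewhere. Markers of other tissue also differed between the pools. The 10 meningeal markers were all higher in the female pool (median 1.02 log2), the 7 measured blood cell markers were all lower (median -0.46), and 4 of 5 pituitary markers measured in both pools were lower there. The pituitary marker Prl went the other way, above background in the female pool only, at -5.72. The log2 summed signal was 1.95 in female and 0.94 in male tissue for the meningeal markers, 3.41 in female and 3.73 in male tissue for the blood cell markers, and 0.79 in female and 1.53 in male tissue for the pituitary markers measured in both pools. Of 6 choroid plexus markers 4 were higher in female tissue, 2 of them by at least 1.5-fold, with a log2 summed signal of 1.46 in female and 0.73 in male tissue. The T and B cell markers Cd3e and Ms4a1 were not above background in either pool. The part of these differences in the values of the Gpr genes was not tested.

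The probe sequences show what each value rests on, since 57 of the 70 genes were read by 1 probe on 1 spot. The first 30 of the 60 bases of a probe are given 5′ to 3′ in lower case with no bases marked, for the highest gene, the largest difference among genes with no spot in a row band, and the pair of probes of Gpr137c, which differed in their difference. Positions are those of the whole probes in the deposited files, build rn4, and whether a probe lay in coding sequence or in a UTR was not analysed here.
Gpr37l1, chr13:48121002-48121061, minus strand: tcccgttaggtgctttcctgtagaaggcca
Gpr101, chrX:142533127-142533186, minus strand: ttaacctgtaagaaaagcacctctgtagac
Gpr137c upstream probe, chr15:21125687-21125746, plus strand: ctggttaacgatagcttgtttattctctgt
Gpr137c downstream probe, chr15:21164237-21164296, plus strand: acctgcagtaacttggatctgaggaaccac
The member probes held between 26.7% and 55.0% G and C, with a median of 45.0%. Over the 83 probes, the G and C content and the mean level had a Spearman rho of 0.10, given as a description.

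The Gpr genes gave mostly modest signals. Of the 70 genes, 57 were well above background in both pools, 81.4% against 78.5% of all gene names on the arrays. A further 3 were measured in the male pool only and 0 in the female pool only, where 3.2% of all gene names were measured in a single pool. The remaining 10 were above background in neither pool, 14.3% against 18.3% of all gene names. The median level of the 57 was -3.19 in female and -3.37 in male tissue, below the -2.29 in female and -2.32 in male tissue of all 20666 genes measured in both pools. Above the 75th percentile in both pools stood 9 of the 57, or 15.8%, against 25.2% of all measured genes.

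**Figure D1:**
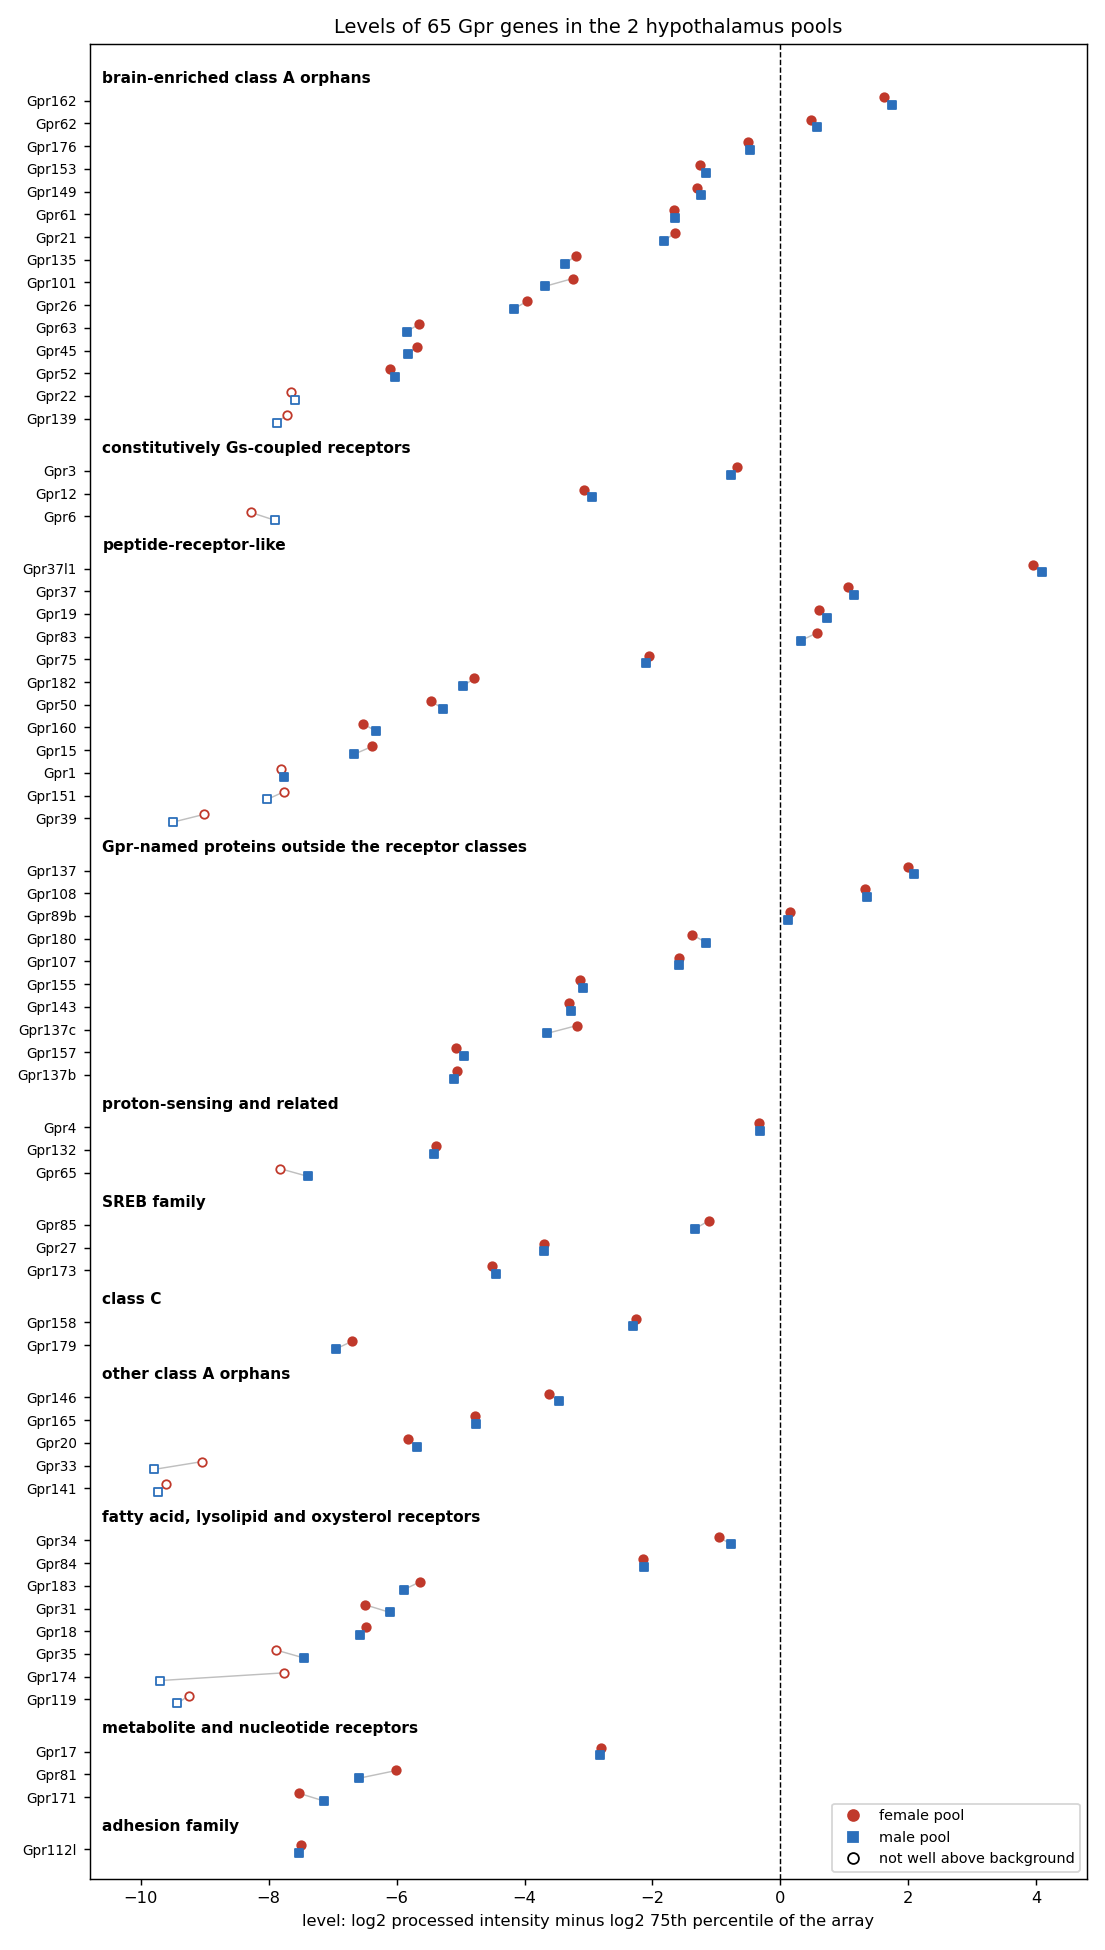
Levels of 65 of the 70 Gpr genes, grouped by role, as log2 of the processed intensity relative to the 75th percentile of the array (dashed line at 0). Circles above are the female pool and squares below the male pool, open where the gene was not well above background; 9 genes lie right of the line in both pools, and Gpr37l1 lies farthest right.

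The order of the levels was nearly the same in the female and male pools. Over the 57 genes, Spearman's rho between the pools was 0.99, a description in which each gene shares its probe between the arrays. Of the 15 highest genes in the female pool, 14 were among the 15 highest in the male pool. The largest shift in rank was 9 places. The median difference was -0.0096 log2, against 0.00068 over all measured genes, and 46 of the 57 genes differed by less than 0.25 log2. By sign alone 25 were higher and 32 lower in female tissue, a share of 43.9% higher against 50.2% of all measured genes. This share was 31.6% when the arrays were scaled on their spike-in controls and 70.2% after a normexp background model fitted without 2 defective spots, against 29.3% and 64.0% of all genes, so it gives no direction for the family.

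At 1.5-fold or more, 0 of the 57 genes were higher in the female pool, where 1.64% of all measured genes were. This count was 1, Gpr137c, without the row bands and with the brightest probe of each gene. In the male pool 1 was higher at this size, against 0.944% of all measured genes, and 0 were without the row bands or with the corrected background model. In either direction together 2.58% of all measured genes passed. A difference over 2 technical SD was seen for 15 of the 57, or 26.3%, against 27.9% of all measured genes. Of these 7 were higher in the female pool, where the share over all genes was 15.2%, and 8 were higher in the male pool, where it was 12.7%. The median size of the difference over the 57 was 0.126 log2, against 0.0925 over all measured genes. Over all measured genes within the middle part of the Gpr levels it was 0.101, a range that leaves out the dimmest and brightest Gpr genes. The shares at 1.5-fold and at 2 technical SD lie near those of all genes. The median size is above that of all genes, but the Gpr genes had a lower median level and the technical SD is larger at low levels. The part of level in this was not tested.

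**Figure D2:**
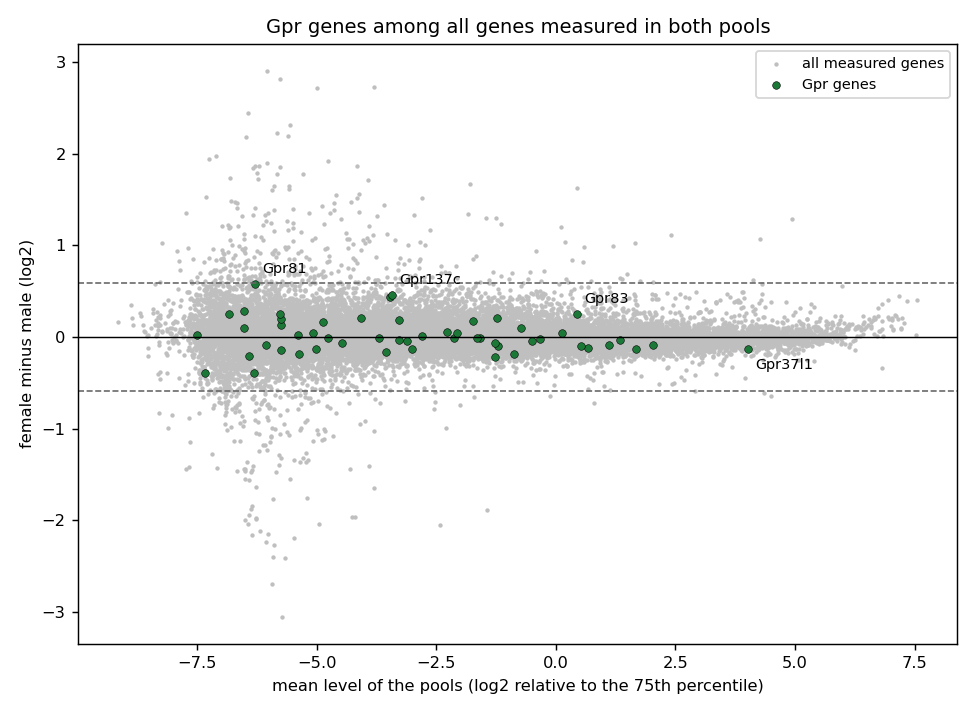
Difference between the pools (female minus male, log2) against the mean level of the pools (log2 relative to the 75th percentile) for the 20666 genes measured in both pools in grey and 53 of the 57 Gpr genes in green. Dashed lines mark 1.5-fold, and the 53 Gpr genes lie between them, with Gpr81 nearest to a line at 0.58.

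Among receptors that resemble peptide receptors, 9 of 12 were measured in both pools and this group held the highest signal of all. Gpr37l1, a relative of the endothelin receptors known from astrocytes, had a level of 3.96 in female and 4.09 in male tissue. Its difference was -0.14 ± 0.042 (technical SD), and its mean level stood at percentile 96.4 of all measured genes. Of the 8 astrocyte markers 4 were higher and 4 lower in female tissue, with a median of -0.011 and a log2 summed signal of 4.34 in female and 4.35 in male tissue. Its relative Gpr37, known from oligodendrocytes and as a substrate of the ubiquitin ligase parkin, had 1.06 in female and 1.15 in male tissue, a difference of -0.088 ± 0.045. Psap, which encodes prosaposin, a proposed ligand of both receptors, had 3.37 in female and 3.33 in male tissue. The 3 genes thus lay above the 75th percentile in both pools, with differences of at most 1.10-fold.

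Gpr83, a receptor induced by glucocorticoids and proposed in mouse to bind a peptide cut from proSAAS, had a level of 0.58 in female and 0.32 in male tissue. The difference was 0.26 ± 0.080, or 1.19-fold, from 1 spot inside a row band. The proSAAS gene Pcsk1n had 4.37 in female and 4.25 in male tissue, a difference of 0.12. Gpr19, an orphan found in neurons, had 0.61 in female and 0.73 in male tissue, a difference of -0.12 ± 0.045. All 4 of these brighter receptors of the group, Gpr37l1, Gpr37, Gpr19 and Gpr83, were above the 75th percentile in both pools, and Gpr83 was the one of them with the higher level in the female pool.

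Several members of the same group gave low signals. Gpr50, the melatonin-related receptor known from cells lining the ventricle wall of the hypothalamus, had -5.47 in female and -5.28 in male tissue, a difference of -0.19 ± 0.18. Gpr160 had -6.52 in female and -6.32 in male tissue, a difference of -0.21 ± 0.25. Gpr15, a homing receptor of T cells, had -6.38 in female and -6.66 in male tissue, a difference of 0.28 ± 0.34. For Gpr50, Gpr160 and Gpr15 the difference was no larger than about 1 technical SD, and after the corrected background model that of Gpr50 was 0.066 and that of Gpr160 was 0.18. Gpr75 and Gpr182, given so that every gene is accounted for, had -2.05 and -4.79 in female and -2.09 and -4.95 in male tissue. Gpr1, a receptor of the adipokine chemerin, was above background in the male pool only, at -7.76, and lay at -7.81 in the female pool, which gives no fold. The galanin-related Gpr151 and the zinc-sensing Gpr39 were above background in neither pool.

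The class A orphans known mainly from brain were the largest group, with 15 of 17 measured in both pools, 7 of them higher and 8 lower in the female pool. Gpr162, an orphan of neurons, was the brightest, with 1.62 in female and 1.75 in male tissue, a difference of -0.13 ± 0.080. Gpr62, known from oligodendrocytes, had 0.48 in female and 0.57 in male tissue, a difference of -0.099 ± 0.080. The oligodendrocyte markers had a median difference of -0.039, with 7 of 11 lower in the female pool and a log2 summed signal of 5.90 in female and 5.96 in male tissue. Gpr176, which in mouse sets the pace of the suprachiasmatic clock, had -0.51 in female and -0.47 in male tissue. Gpr153 had -1.26 in female and -1.17 in male tissue. None of these 4 differed by more than 1.10-fold.

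Gpr101 had the largest difference among the 35 measured genes with no spot in a row band. It is a receptor that raises cyclic AMP, is known from the hypothalamus, and its duplication causes X-linked gigantism in humans. The level was -3.25 in female and -3.68 in male tissue, a difference of 0.43 ± 0.068, or 1.35-fold higher in the female pool. This size stood at percentile 94.9 of all measured genes, and it ranged from 0.35 to 0.44 over the alternative settings apart from a background model that failed. The gene rests on 1 spot.

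Gpr52, a receptor known from striatum, had -6.11 in female and -6.02 in male tissue, a difference of -0.089 ± 0.18 that was 0.11 after the corrected background model. Of the 8 striatal markers measured, 7 were higher in female tissue, where their median difference was 0.094, at a log2 summed signal of 3.83 in female and 3.77 in male tissue. The part of the striatal markers in the values of the Gpr genes was not tested.

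The other brain orphans are given so that every gene is accounted for. Gpr149, Gpr61, Gpr21 and Gpr135 had levels of -1.30, -1.66, -1.65 and -3.19 in female and -1.24, -1.65, -1.83 and -3.37 in male tissue. Gpr26, Gpr63 and Gpr45 had -3.96, -5.65 and -5.69 in female and -4.17, -5.84 and -5.82 in male tissue. The largest difference of these 7 was 0.21 ± 0.18, for Gpr26. Gpr22 and the habenular receptor Gpr139 were above background in neither pool.

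Among receptors of lipids, Gpr34 and Gpr84 gave the brighter signals. Of the 9 genes, 5 were measured in both pools, 1 in the male pool only and 3 in neither. Gpr34, a receptor of lysophosphatidylserine known from microglia, had -0.97 in female and -0.78 in male tissue, a difference of -0.19 ± 0.051, or 1.14-fold higher in the male pool. The microglial markers had a median difference of 0.034, with 7 of 11 higher in female tissue and a log2 summed signal of 4.41 in female and 4.37 in male tissue. Gpr34 was thus lower in the female pool while most of these markers were higher there. The difference of Gpr34 kept its sign under the 12 alternatives apart from the failed background model, between -0.27 and -0.18.

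Gpr84, a receptor of medium-chain fatty acids found on activated microglia, had -2.15 in female and -2.13 in male tissue. Gpr183, which guides immune cells along oxysterol gradients, had -5.64 in female and -5.89 in male tissue, a difference of 0.25 ± 0.14, with both of its probes higher in the female pool, by 0.31 and 0.19. Ch25h, which encodes the enzyme that starts the synthesis of its oxysterol ligand, had -3.01 in female and -3.45 in male tissue, a difference of 0.44. The Ch25h difference came from 1 spot inside a row band, with a technical SD of 0.12. Cyp7b1, also listed among genes of proposed ligands or their synthesis, had -0.81 in female and -0.71 in male tissue. Its difference was -0.10 ± 0.021, over 10 spots. The receptor and Ch25h were thus higher in the female pool, each by less than 1.5-fold, and Cyp7b1 was lower there.

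Gpr31, proposed in humans as a receptor of a hydroxylated arachidonic acid, had -6.50 in female and -6.10 in male tissue, a difference of -0.39 ± 0.25 that was 0.042 after the corrected background model. Gpr18, proposed as a receptor of N-arachidonoyl glycine, had -6.48 in female and -6.57 in male tissue. Gpr35, for which kynurenic acid is a proposed ligand, was above background in the male pool only, at -7.45, against -7.88 in the female pool. Its male level was 1.21-fold above -7.72, the lowest level of a probe called above background in the female pool. This fold is no lower bound, since Gpr22 lay at -7.65 in the female pool and was not above background. The fold also leaves out the technical SD of Gpr35, 0.34 log2, and its 1 spot lay inside a row band. Gpr174 and Gpr119 were above background in neither pool. Gpr174 lay at -7.75 in female and -9.70 in male tissue, a gap between 2 background readings that gives no fold.

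Of 4 receptors that sense protons or resemble those that do, 3 were measured in both pools. Gpr4, known from endothelium and, in mouse, from neurons that sense carbon dioxide, had -0.34 in female and -0.32 in male tissue, a difference of -0.024 ± 0.051. The 10 endothelial and mural markers had a median difference of -0.0095 and a log2 summed signal of 2.06 in female and 2.12 in male tissue. Gpr132 had -5.39 in female and -5.41 in male tissue. Gpr65, known from immune cells, was above background in the male pool only, at -7.38, against -7.82 in the female pool. Its male level was 1.27-fold above the lowest level of a probe called above background in the female pool. This fold is no lower bound either, and it leaves out its technical SD of 0.25 log2.

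The receptors that raise cyclic AMP without a ligand, Gpr3, Gpr6 and Gpr12, had unequal signals. Gpr3 had -0.68 in female and -0.78 in male tissue, a difference of 0.099 ± 0.051. Gpr12 had -3.07 in female and -2.95 in male tissue, a difference of -0.13 ± 0.068. Gpr6, known from striatum, was above background in neither pool. Differences of opposite sign and at most 1.10-fold were thus seen for the 2 measured genes.

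The SREB family, a group of receptors strongly conserved among vertebrates and found in brain, was measured in full. Gpr85 had -1.12 in female and -1.33 in male tissue, a difference of 0.21 ± 0.051, from a spot outside the row bands. Gpr173 had -4.50 in female and -4.44 in male tissue, and Gpr27 had -3.70 in female and -3.69 in male tissue. Of the 3, Gpr85 was the one whose difference was over 2 technical SD, at 1.16-fold higher in the female pool.

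Metabolite and nucleotide receptors comprised Gpr17, Gpr81 and Gpr171. Gpr17, which marks oligodendrocyte precursors on their way to maturity, had -2.80 in female and -2.81 in male tissue. Gpr81, the lactate receptor, had -6.00 in female and -6.59 in male tissue, a difference of 0.58 ± 0.34. This was just under 1.5-fold and came from 1 spot in a row band. Gpr171, proposed in mouse to bind another proSAAS peptide, had means over its probes of -7.53 in female and -7.14 in male tissue. Its probe with 9 usable spots differed by 0.0091 with an SD of 0.33 over spots, 5 of the 9 higher in the female pool. Its other probe, on 1 spot, differed by -0.79 and was not above background in the female pool, so that probe set the gene's mean difference of -0.39, which was 0.17 after the corrected background model.

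The class C receptors, whose relatives bind glutamate and GABA, were all measured. Gpr158, a brain receptor that holds RGS proteins at the membrane, had -2.25 in female and -2.31 in male tissue, a difference of 0.059 ± 0.071, or -0.076 with its brightest probe alone. Gpr179, known from bipolar cells of the retina, had -6.70 in female and -6.95 in male tissue, a difference of 0.25 ± 0.25. Neither difference exceeded 2 technical SD.

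Among the 5 other class A orphans, Gpr146 had -3.62 in female and -3.47 in male tissue, a difference of -0.16 ± 0.068. Gpr20 had -5.82 in female and -5.68 in male tissue, and Gpr165 had -4.78 in female and -4.76 in male tissue. These 3 were lower in the female pool, but Gpr20 and Gpr165 were at 0.13 each after the corrected background model. Gpr33 and Gpr141 were above background in neither pool. The adhesion receptor Gpr112l, on 2 probes, had a mean of -7.50 in female and -7.52 in male tissue, a difference of 0.027 ± 0.19. Its upstream probe was above background in neither pool, and its measured probe alone had -5.30 in female and -5.21 in male tissue, a difference of -0.088. Upstream here follows the deposited start in the transcript. The deposited genome positions of the probes lie on opposite strands of the X chromosome, with 203274 bases between them, and this conflict was not resolved.

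The 10 proteins named Gpr that lie outside the receptor classes were all measured in both pools. Gpr137, a membrane protein of the lysosome, had 2.00 in female and 2.08 in male tissue. Gpr108, a protein of the Golgi, was read by 10 spots, with 1.32 ± 0.032 in female and 1.35 ± 0.044 in male tissue (SD over spots of 1 array). Its difference was -0.038 ± 0.031 (SD over 10 spots), and all 10 spots were lower in the female pool. The 10 spots shared 1 array and 1 scaling per pool, so their common sign is not repeated evidence. Over the alternative settings apart from the failed background model, the difference of Gpr108 ranged from -0.12 to -0.027. Gpr89b, an anion channel that regulates the pH of the Golgi, had 0.16 in female and 0.12 in male tissue. These 3 genes lay above the 75th percentile in both pools.

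Gpr180 had -1.38 in female and -1.16 in male tissue, a difference of -0.22 ± 0.051, outside the row bands. Gpr137c, a relative of Gpr137, had -3.19 in female and -3.65 in male tissue, a difference of 0.46 ± 0.067. Its upstream probe, in a row band, differed by 0.18 and its downstream probe, on 1 spot in slide row 511 outside the bands, by 0.74. The window of rows around row 511 adjoins a band, and 1.40% of its repeated spots departed, just under the band limit of 1.5%. Both probes were thus higher in the female pool, by unequal amounts, and the gene passed 1.5-fold where the downstream probe stood alone. For the rest of the group, Gpr107, Gpr155, Gpr143, Gpr157 and Gpr137b had levels of -1.59, -3.13, -3.30, -5.07 and -5.06 in female and -1.58, -3.09, -3.27, -4.94 and -5.10 in male tissue.

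**Figure D3:**
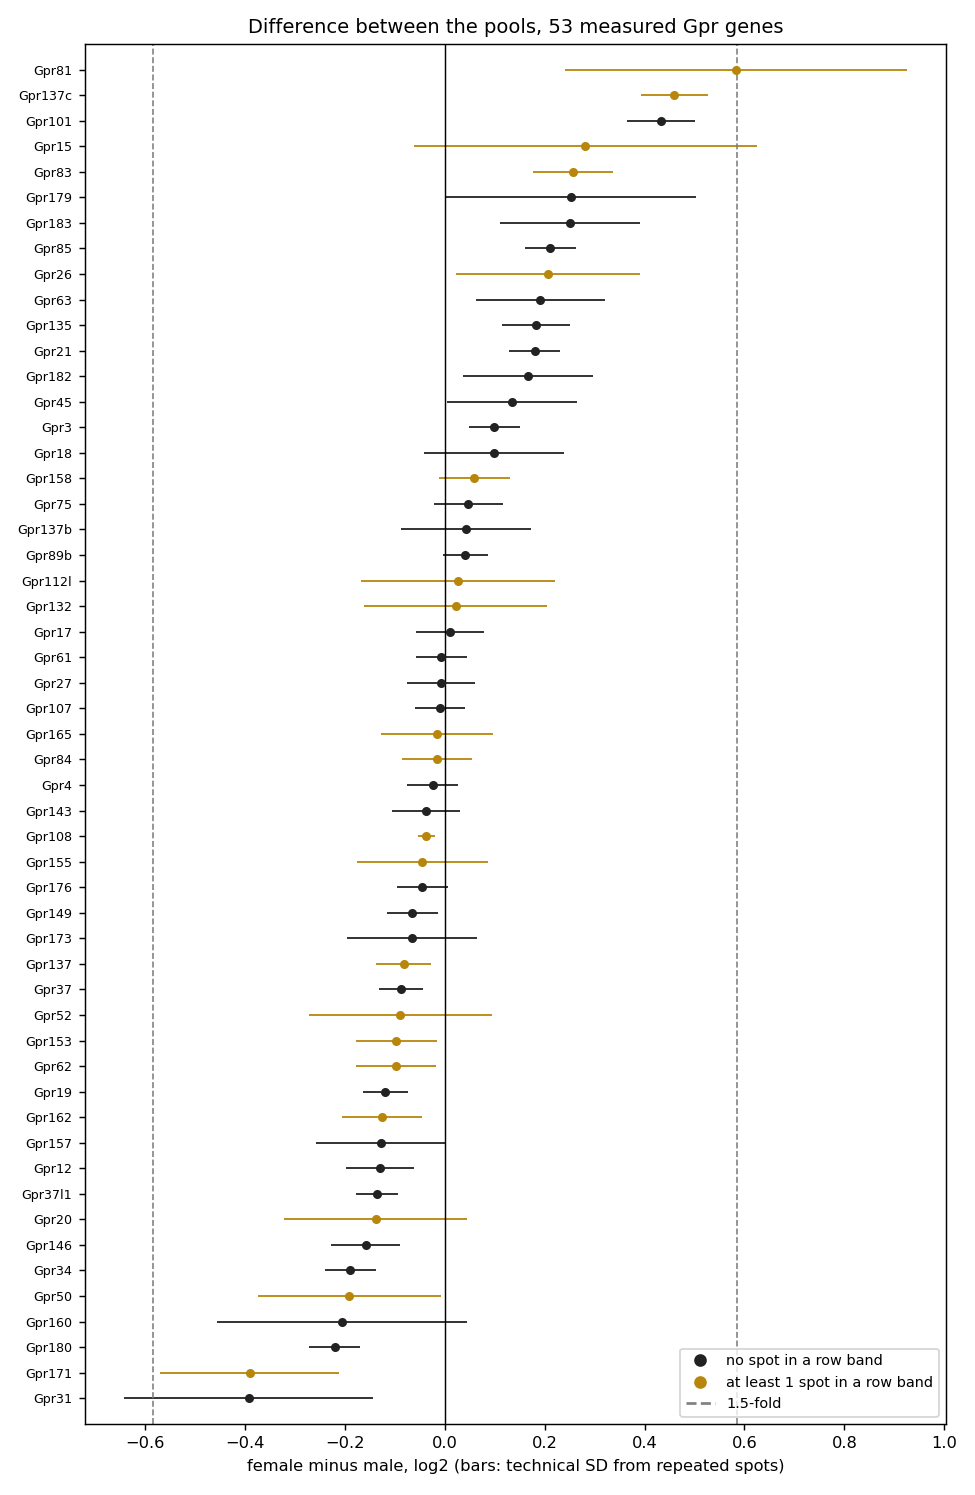
Female minus male difference (log2) of 53 of the 57 Gpr genes measured in both pools, with the technical SD as bars and 1.5-fold as dashed lines. Gold points have at least 1 spot in a row band (20 genes) and black points none (33 genes); the topmost point, Gpr81, is gold, and the largest black one is Gpr101 at 0.43.

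On the X chromosome lay 9 of the 70 genes, 7 of them measured in both pools. Of these 7, 2 were higher and 5 lower in female tissue, with a median difference of -0.037, where 50.2% of all measured genes were higher. After the corrected background model Gpr50, Gpr165 and Gpr173 were higher there, at 0.066, 0.13 and 0.060, and Gpr34 stayed lower, at -0.21. Gpr112l, 1 of the 2 higher genes, was at -0.088 with its measured probe alone. The count therefore gives no direction for the X chromosome. Gpr101, at 0.43, and Gpr34, at -0.19, lay at opposite sides.

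Probes of 1 gene gave levels far apart, and their differences between the pools also varied. Over the 10 genes with more than 1 probe measured in both pools, 12 pairs of probes had a median gap of 1.11 log2 in level, against 1.91 over 3338 such pairs of all genes. The median gap between their differences was 0.110, against 0.121 over all genes, and 8 of 12 pairs had the same sign, 66.7% against 58.7%. That gap was nearly as large as the differences themselves, whose median size over the 57 genes was 0.126. Differences span a far narrower range than levels, so their smaller gap does not show that they depend less on the probe. The largest gap in level was that of Gpr155, 6.31 log2 between its probes. Gpr155, named in human cells as a cholesterol sensor of the lysosome, read -6.27 in female and -6.26 in male tissue with the upstream probe, whose 60 bases are spread over 1093 bases of the genome. With the downstream probe it read 0.0088 in female and 0.086 in male tissue.

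The probe nearer the end of the transcript was usually the brighter. In 8 of the 10 genes with more than 1 probe measured in both pools the most downstream probe was the brightest, 80.0%, and the median level of the most downstream minus the most upstream probe was 0.98 log2. Among 2565 other genes with 2 or more measured probes on 1 transcript this was so for 76.6%, with a median of 1.57, so the pattern is not particular to the Gpr genes. Gpr158 read 1.09 in female and 1.16 in male tissue with its most downstream probe, and between -4.35 and -3.73 with the other two in either pool. Level ranks of such genes therefore depend on which probes are averaged. Small differences between the pools do so as well, with a median gap of 0.110 between probes beside a median size of 0.126.

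**Figure D4:**
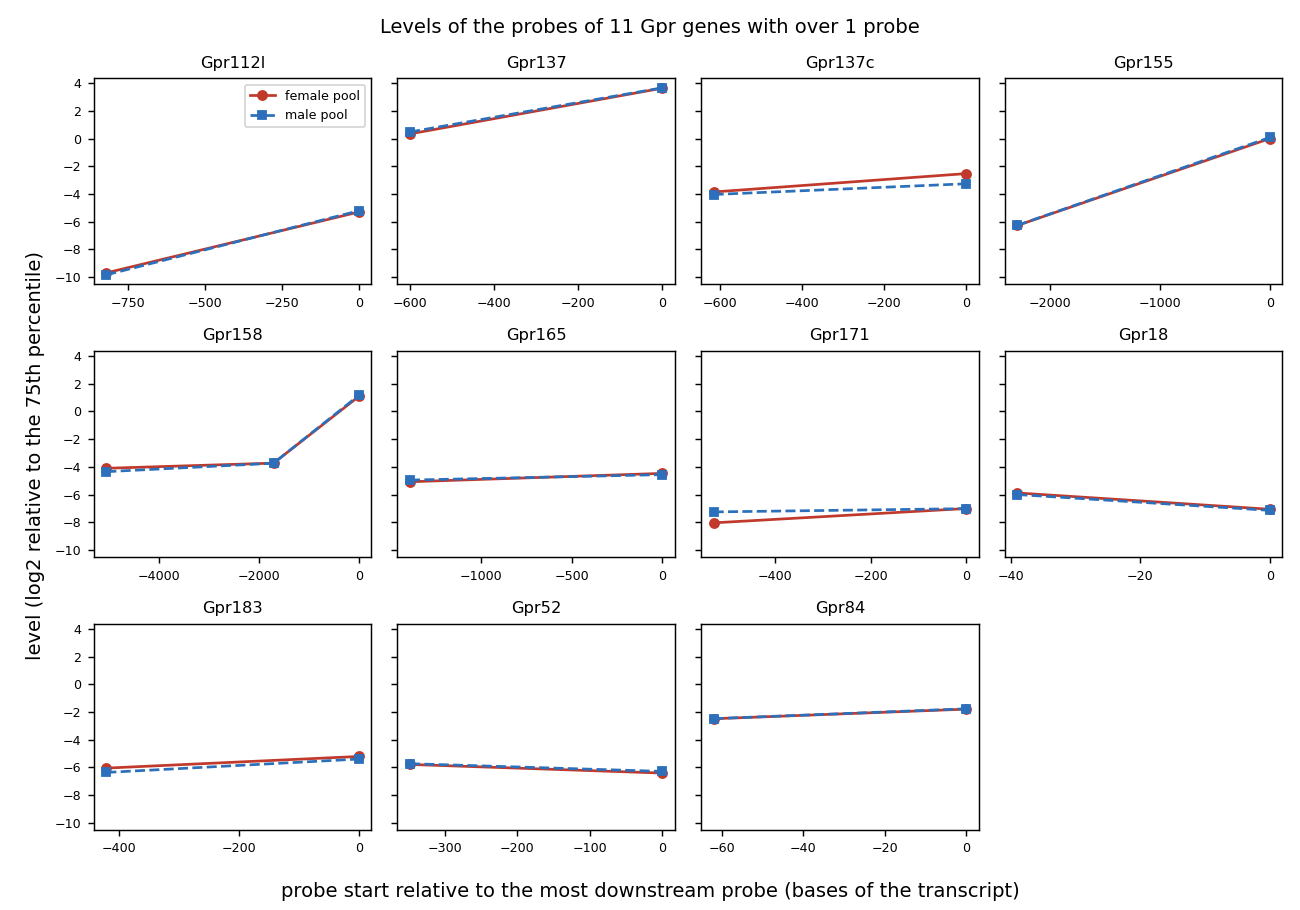
Levels (log2 relative to the 75th percentile) of the probes of 11 of the 12 Gpr genes with more than 1 probe, against the start of the probe in the transcript relative to the most downstream probe, in bases. For Gpr112l the deposited genome positions of the probes lie on opposite strands. Solid lines with circles are the female pool and dashed lines with squares the male pool; the lines of both pools nearly coincide except for Gpr137c and Gpr171, and in 9 of the 11 the rightmost probe is the highest, with Gpr112l and Gpr171 each holding an upstream probe not above background in at least 1 pool.

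Even overlapping probes differed. The probes of Gpr18 share 21 bases, printed here because they are the part read by both: ACATGAACAGTGAAATGCTTT, in capitals throughout. They lie at chr15:107014902-107014961 and chr15:107014941-107015000 of rn4, minus strand. The first, farther downstream, read -7.07 in female and -7.15 in male tissue, and the second read -5.89 in female and -6.00 in male tissue. The gap in level was 1.16 log2, while the differences between the pools were 0.081 and 0.12.

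The genes that carry receptor signals into the cell, and those of proposed ligands, were described in 6 lists. Of the genes measured in both pools, 0 reached 1.5-fold in any of them, where 2.58% of all measured genes did. By sign alone, 50.2% of all measured genes were higher in female tissue. Of 13 G protein alpha subunits 8 were higher and 5 lower in female tissue; their median was 0.0073. The largest differences were those of Gna14, which passes signals to phospholipase C, at -0.45, and Gna11, of the same family, at 0.24, followed by Gna15 at -0.15 and Gnat1 at 0.19. Gna13 and Gnat2 were above background in the female pool only. Of 15 beta and gamma subunits 7 were higher and 8 lower in female tissue, with Gng8 at -0.19 and Gnb3 at -0.12 on one side and Gng7 at 0.23 and Gnb4 at 0.21 on the other. The difference of Gnb3 came from 1 spot inside a row band, with a technical SD of 0.18. Gngt1 was above background in the male pool only. Of 18 RGS genes, which switch G proteins off, 9 were higher and 9 lower in female tissue, with Rgs22 and Rgs3 at -0.15 each on one side and Rgs17 at 0.28 and Rgs7 at 0.20 on the other.

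Of 8 adenylyl cyclases 4 were higher and 4 lower in female tissue, with Adcy4 at -0.35 and Adcy6 at -0.13 on one side and Adcy8 at 0.13 and Adcy7 at 0.12 on the other. Of 10 receptor kinases and arrestins, which shut receptors down, 5 were higher and 5 lower in female tissue, with Arrb1 at -0.15 and Grk4 at -0.12 on one side and the dim visual arrestin Arr3 at 0.39 and Grk1 at 0.096 on the other. Among 12 genes of proposed ligands or their synthesis 7 were higher and 5 lower in female tissue. Qrfp, which encodes the peptide of a receptor once called an orphan, had the largest difference, with -3.75 in female and -3.17 in male tissue, or -0.58. Uts2, which encodes urotensin, had -4.83 in female and -4.42 in male tissue, or -0.41 ± 0.18, from 1 spot inside a row band. On the other side stood Ch25h at 0.44 and Rarres2, which encodes chemerin, at 0.22. Adcy4 and Arr3 each rested on 1 spot inside a row band, with technical SDs of 0.18 and 0.34. The technical SDs of Adcy6, Adcy7 and Grk1 were 0.13, 0.11 and 0.14, about the size of their differences or larger. The medians of the 6 lists lay between -0.017 and 0.042.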

How the data were processed

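RNA of 1 female and 1 male pool of rat hypothalamus was measured on 1-colour arrays. The deposited scanner files held a processed intensity per spot, background-subtracted by Agilent Feature Extraction 10.7.3.1 per the file headers, whereas the submitters' processing notes name version 9.1. The deposited value table held the same intensity as a signal on a scale where the 75th percentile of an array is 100 (medians 29.5 female, 29.0 male). It was centred on no gene. Flags for background and outliers are other deposited values per spot, per the file headers, and the build was rn4.

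The log2 levels computed here from the deposited intensity were averaged over unflagged spots of a probe and then over all probes of a gene name. A gene was measured where over 50% of the spots of at least 1 probe were well above background. For genes measured in 1 pool, a fold was taken between the brighter level and a reference level. The reference was the detection floor of the dim array (-7.72 female, -7.97 male) or the dim gene's own level, whichever was greater. The floor is the lowest level of a probe called above background. Probes not called can lie above it, so the fold is no strict bound. Technical SDs came from 1278 repeated probes in 6 level groups, inside and outside row bands. Bands were windows of 20 rows where at least 1.5% of repeated spots lay over 4 robust SD from their probe's median. Python 3.11.15, pandas 2.3.3, scipy 1.17.1, R 4.3.3 and limma 3.58.1 were used, and the calculation was tested on simulated data.

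The genes, the lists and the settings were chosen with earlier results of these data known. The genes named were the 15 highest, the 8 largest differences per direction, those measured in 1 pool, those with repeated or several probes, the highest, lowest and largest difference of each role group, and the 2 largest differences per direction of each pathway list. Psap, Pcsk1n, Cyp7b1, genes measured in 1 pool and tissue markers are named outside this rule, after their values were seen. Gpr112l was placed in its role group after the names on the arrays were seen. The remaining genes are named to account for the list, except that 5 of the 70 enter the counts and medians but are not reported singly here. Roles are background knowledge. Of the 70 genes, 63 matched a RefSeq accession in assembly GRCr8, which renames Gpr1 and Gpr81.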

Additional observations from a re-analysis of the deposited data

How the results depend on the processing

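Of 90 values of the main counts and the median under 13 alternatives, 78 stayed within the limits set for them and 12 did not. A count stayed if equal or within a factor of 1.5, and the median if it moved by less than 0.096 log2. These limits are wide beside a median of -0.0096. A fall of the share higher in the female pool from 43.9% to 31.6% under spike-in scaling still lay within them. A normexp background model fitted to all spots put the median difference at -0.87, with 35 genes past 1.5-fold toward the male pool and 7 higher in the female pool by sign, where the median of all genes moved to -0.56. This fit had a background mean of -594.6 on the male array because of 2 spots with very high local background. Without them, a choice made after the data were seen, the mean was -1.24, 40 genes were higher in the female pool by sign and 0 passed 1.5-fold toward the male pool. The count past 1.5-fold toward the female pool was 1 with the percentile taken over spots above background, 1 with the brightest probe per gene, 1 without the row bands and 2 without a filter on dim probes. Without the row bands, 0 genes passed 1.5-fold toward the male pool and 5 were above the 75th percentile in both pools. Requiring every spot above background on both arrays gave 0 genes measured in 1 pool only, which that rule fixes by its construction. Over all genes, 534 passed 1.5-fold, against 204 without the row bands, 2079 without a filter, 210 with the corrected model and 10214 with the failed one. The causes of the other changes were not tested.

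Of 43 named genes measured in both pools, 25 kept the sign of their difference under all 12 alternatives other than the failed model, and 18 changed it under at least 1. Differences of dim genes are limited by signal near background, and most genes by 1 spot. No paired analysis was possible because each group held 1 array.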
